A study of Homo sapiens with 9 samples.

Results

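Retained-intron transcripts are annotated transcripts of a gene in which sequence that other transcripts of that gene splice out is kept as part of an exon. The nuclear and cytoplasmic RNA-seq libraries of HEK293 cells, a line derived from human embryonic kidney, were quantified per transcript, and 26865 of the 215170 listed transcripts carried this type in the human GRCh37 annotation. The members described here were the 7339 of them with a level of at least 1 TPM (the usual unit of transcript abundance, the reads of a transcript per length, scaled to the same total in each sample) in at least 3 of the 9 samples. They lay in 3852 genes, of which 1757 held more than 1 member and the fullest held 12. Because the rule used the TPM values, and 4463 members passed it through nuclear samples alone against 6 through cytoplasmic samples alone, all levels and all counts of nucleus against cytoplasm are descriptions of the members and not support for a difference. The members nearest to the limit had a third-highest TPM of 1.00004 (UBP1), 1.00037 (CLPTM1L) and 1.00084 (HERC2) inside it, and 0.999754 (SYVN1), 0.999648 (FCGRT) and 0.999598 (RPUSD3) outside it.

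The cells had received either control siRNA or siRNAs against both Virilizer (KIAA1429, symbol VIRMA) and WTAP, subunits of the complex that places N6-methyladenosine (m6A) on mRNA, and no other agent or allele separated the groups. There were 3 control nuclear, 1 control cytoplasmic, 3 RNAi nuclear and 2 RNAi cytoplasmic samples, so that every control value in the cytoplasm rested on a single sample (replicate 2). Both proteins were depleted together, so their parts cannot be told apart, and no source used here says that the samples came from separate cultures, so p-values measure only the spread between these samples, which may be technical. TPM values sum to the same total in each fraction, so a nuclear/cytoplasmic ratio here compares the makeup of each fraction and not the number of molecules in each compartment.

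Total estimated counts ran from 11627403 to 19036141 per sample, so that 3 counts equalled 0.164 to 0.260 CPM (counts scaled to the library's total), and such limits cover counting error only. WTAP stood at 15.9 TPM in control cytoplasm, 9.23, 12.6 and 9.10 in control nuclei, 3.03 and 2.59 in RNAi cytoplasm and 4.32, 6.70 and 6.08 in RNAi nuclei. VIRMA stood at 5.25, then 3.43, 6.04 and 7.02, then 1.47 and 0.993, then 3.80, 2.43 and 1.8 TPM in the same order, so the first RNAi nuclear sample lay within the range of the control nuclei. The nuclear RNAs MALAT1 (0.461 to 1.51 TPM in cytoplasm, 11.2 to 20.5 in nuclei) and NEAT1 (1.22 to 2.97, and 11.4 to 21.1) separated the fractions. The 8 mitochondrial mRNAs measured as cytoplasmic markers were not depleted from the nuclear fraction: they summed to 119439 to 181306 TPM in cytoplasmic and 180231 to 273196 in nuclear samples, and 3 of them (MT-CO1, MT-CO3 and MT-CYB) were higher in each nuclear than in any cytoplasmic sample. The part of this in the results was not tested. Of the markers of the line, PAX2 (2.78 to 6.14 TPM) and NEFM (51.7 to 114) were present, CD3E was at 0 and PTPRC reached at most 0.197 TPM, while GFAP reached 0.863 to 7.51.

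Introns are removed by the spliceosome, which recognises a 5′ splice site that nearly always begins with GT and a 3′ splice site that ends with AG. An mRNA that keeps an intron can be held in the nucleus until it is spliced or degraded there, or can reach the cytoplasm, where a premature stop codon exposes it to nonsense-mediated decay (NMD). Retained introns are well known in genes for RNA-binding proteins, where they help such proteins limit their own production, in MAT2A, whose intron answers to the supply of the methyl donor S-adenosylmethionine, and in OGT, the enzyme that attaches O-linked N-acetylglucosamine to proteins.

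The splice sites of 8 whole introns kept in members with contrasting fractions are shown first, because the results turn on where such transcripts were found. Each line gives the exon's last 3 and the intron's first 6 bases, a slash, then the intron's last 20 bases and the next exon's first 3, with the splice dinucleotides in capitals, read 5′ to 3′ from GRCh37. The first 5 lay in members with higher levels in nuclei, the last 3 in members with higher levels or shares in the cytoplasm, and the introns were chosen after their values were seen. ALDOA-212 is the weakest of these, since its fractions overlapped in control cells. Its call in RNAi cells was lost without the second RNAi cytoplasmic sample. An intron counted as kept where any other annotated transcript of the gene splices it out, so it can be exon sequence in others. Whether this holds for the intron shown for RPL13-213 was not tested, and that transcript need not be an incompletely spliced RNA.
DDX39B-215 (chr6:31500689-31502262, minus strand): aagGTaaag / acccccttcctcccccccAGcca
EXOSC2-207 (chr9:133576323-133577520, plus strand): aaaGTaagt / ttcgtgatatatttctttAGcta
MAT2A-204 (chr2:85768501-85768755, plus strand): aagGTgtgt / gttgtgttttttgcttatAGgtt
OGT-210 (chrX:70764486-70767756, plus strand): aagGTaggt / tttcattaacccctcctaAGgca
EFTUD2-218 (chr17:42931004-42931636, minus strand): aatGTaagt / tccctccacctcctttacAGtga
ALDOA-212 (chr16:30081540-30081598, plus strand): gagGTgttc / ctcccactcttgaagaggAGgcc
RPL13-213 (chr16:89628007-89628147, plus strand): aagGTggcc / agccctcggcccccaagaAGgga
CPT1C-222 (chr19:50216799-50216872, plus strand): cagGTgtgg / cgacttctgactccttccAGcag
The introns kept in the nuclear members spanned 255 to 3271 bases (MAT2A-204 and OGT-210), and those in ALDOA-212, CPT1C-222 and RPL13-213 spanned 59, 74 and 141 bases. Short introns were kept in nuclear members too, such as those of 124 and 71 bases in SRRM2-217, and EIF3F-201, whose share was lower in nuclei, kept one of 464 bases.

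Over all members, 3787 whole introns of other transcripts of the gene lay inside a member's exon. Introns of protein-coding transcripts were taken where the member held any, and otherwise those of other transcript types. The kept introns had a median length of 227 bases (quartiles 117 and 469) and a median GC content of 56.7%. For 21968 introns of the host genes' protein-coding transcripts that no member overlapped, these were 752 bases (223 and 2327) and 51.5%. The kept introns began with GT and ended with AG in 97.8% and began with GC in 1.72%, against 98.4% and 1.37%. The 6 bases GTAAGT opened 7.26% of them and GTGAGT 14.3%, against 8.63% and 15% of the other introns. The kept introns counted were therefore shorter and richer in GC with nearly the same splice dinucleotides. The way of counting itself favoured short ones, since each had to lie inside a single exon and of overlapping ones the smallest was taken. The other introns met no such rule, so the lengths are not compared like for like, and no test was run.

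More members reached the entry limit in nuclear than in cytoplasmic samples, as the rule allowed. In the nuclear samples 5514 to 6476 of the 7339 members reached 1 TPM, and in the cytoplasmic samples 2071 to 2393 did. Their median share of the host gene's TPM was 6.82% to 8.05% in nuclear and 0.519% to 1.07% in cytoplasmic samples. Their summed level differed less, at 46492 to 64811 TPM in nuclear against 44434 to 50910 in cytoplasmic samples. The 10 most abundant members made up 32.8% to 35.7% of the cytoplasmic and 17% to 19.9% of the nuclear sum, and without them the sums were 37240 to 52768 TPM in nuclear and 28568 to 34192 in cytoplasmic samples. Summed over their host genes, members took 16.2% to 18.1% of the TPM in nuclei and 11.9% to 12.9% in the cytoplasm, a difference of 4.94 percentage points between the means of the 6 nuclear and 3 cytoplasmic samples.

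For levels, the quasi-likelihood test of edgeR was used, with calls at a Benjamini-Hochberg adjusted p under 0.1 over all 46718 transcripts tested with a log2 change beyond 0.5 in size. In RNAi cells, 4602 of the 7339 members (62.7%) were higher in the nucleus and 222 (3.02%) in the cytoplasm, while 29.5% and 12.9% of all transcripts tested were called in these directions. In control cells the counts were 3602 (49.1%) and 262 (3.57%), beside 21.6% and 10.6% of all transcripts. The control cytoplasm is 1 sample with no spread of its own, so every control SE and p assumes that it varies like the other groups. Both contrasts called 3383 members higher in the nucleus and 108 higher in the cytoplasm. Such overlaps of the contrasts were not counted over all transcripts. The TPM of 4440 members (60.5%) was higher in each of the 6 nuclear samples than in any cytoplasmic sample, beside 28.7% of all transcripts, and 177 (2.41%) had the opposite order, beside 8% of all. The median log2 difference between nucleus and cytoplasm was 3.10 in RNAi cells (quartiles 0.94 and 5.26) and 2.72 in control cells, against 0.30 and 0.26 over all transcripts. With the 1823 and 2107 members that had no counts in 1 group of a contrast set at the fold that 3 counts allow, the medians were 1.88 and 1.76. With library size alone as scaling, the median of all transcripts in RNAi cells moved to 0.49, and the nuclear part of all calls from 69.6% to 80.4%.

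Other transcript types of the same table did not share this distribution. Transcripts annotated as targets of NMD, which carry a premature stop codon, had a median log2 difference of 0.19 in RNAi cells, with 23.7% of 2814 called higher in the nucleus and 11.3% in the cytoplasm. Protein-coding transcripts had a median of −0.21, with 16.3% and 20% of 21955 called. Transcripts of coding genes with no defined coding sequence lay between, with a median of 1.08 and 36.7% and 5.82% of 4551 called.

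**Figure D1:**
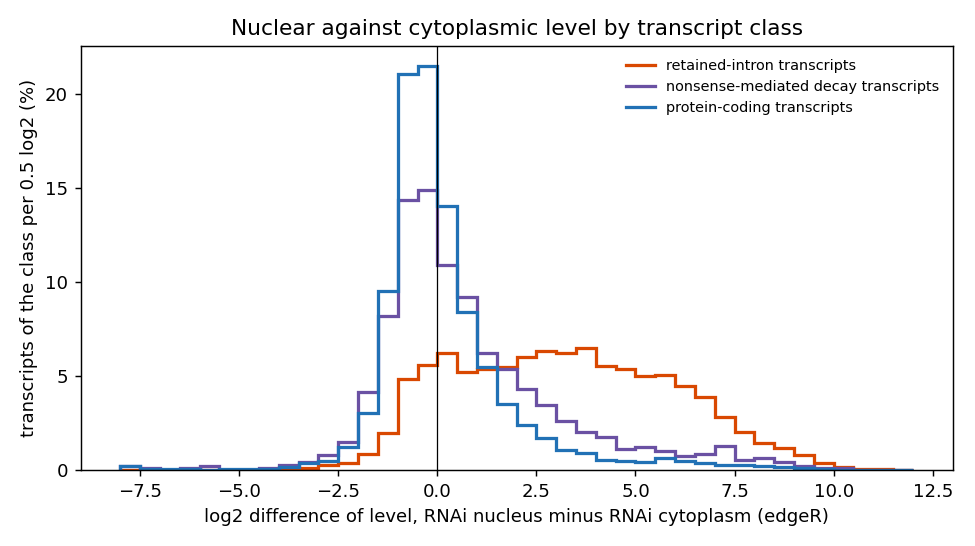
Distribution of the log2 difference between RNAi nuclei and RNAi cytoplasm (x axis, edgeR fit) for retained-intron, nonsense-mediated decay and protein-coding transcripts, as the percent of each class per interval of 0.5 (y axis). The medians were 3.10, 0.19 and −0.21, and the retained-intron transcripts spread far to the right of the other classes.

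The share of its gene that a member took was tested with limma on log2 of its TPM over the TPM of the gene's other transcripts, with 0.1 TPM added to both, over 35469 transcripts of which 7035 were members. Changes in this ratio are given on that scale, which understates the change of low transcripts. In RNAi cells 3928 members (55.8%) took a higher share in the nucleus and 133 (1.89%) in the cytoplasm, beside 21.4% and 9.59% of all transcripts. In control cells the counts were 2958 (42%) and 90 (1.28%), beside 15.5% and 4.96%. In RNAi cells, level and share were both called higher in the nucleus for 3700 members and both higher in the cytoplasm for 44. This overlap was not counted over all transcripts. The count higher in the cytoplasm by share fell to 87 when the second RNAi cytoplasmic sample was left out.

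Members differed widely in the part of them outside coding-transcript exons, and this went with their fraction and, as given below, was mixed with their level. The intronic part of a member was taken as the percent of its bases outside all exons of its host gene's protein-coding transcripts, for the 6675 members whose annotated and deposited lengths were equal. Its median was 32.8% (quartiles 17.2% and 51.6%), and it was 41.6% among the members called higher in RNAi nuclei and 15.2% among those called higher in RNAi cytoplasm. The share of members called higher in RNAi nuclei was 30.5% of 802 with at most 10% intronic bases, 45.4% of 1713 from 10% to 25%, 68.3% of 2369 from 25% to 50%, 84.0% of 1471 from 50% to 75% and 89.4% of 320 above 75%. The share called higher in the cytoplasm declined over the same groups from 8.10% to 4.67%, 1.94%, 0.612% and 0.313%. The median log2 differences were 0.66, 1.72, 3.42, 4.33 and 4.16, and 0.51, 1.10, 2.10, 2.83 and 3.40 with members without counts in 1 group at the bound that 3 counts allow, so the order of the last pair depended on that choice. In control cells the medians were 0.67, 1.57, 2.98, 3.70 and 3.51.

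**Figure D2:**
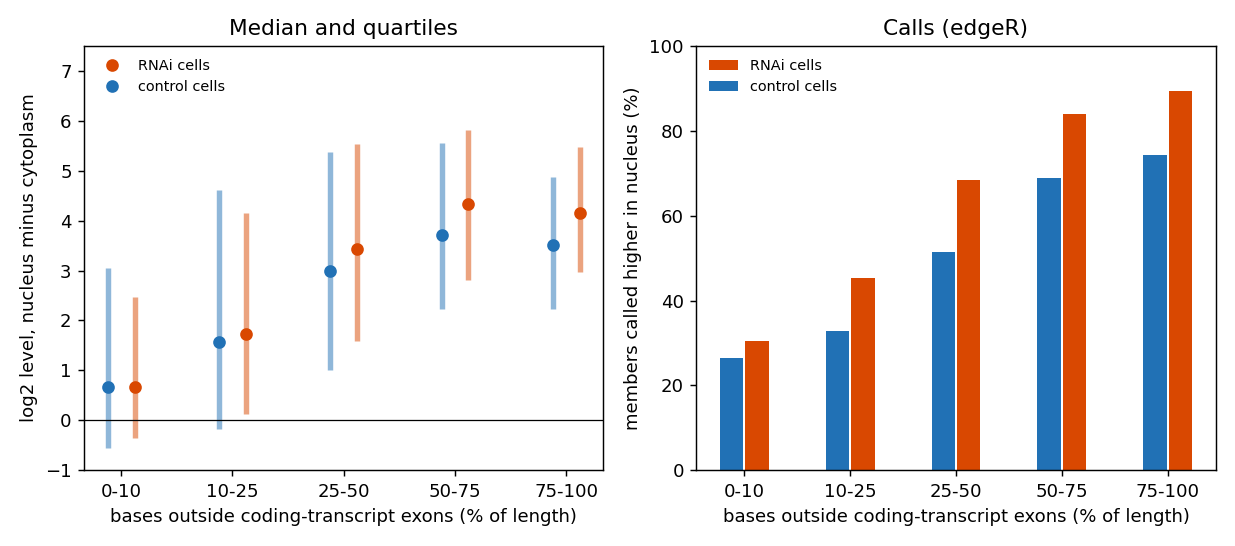
Left, median (point) and quartiles (line) of the log2 difference between nucleus and cytoplasm (y axis) for members grouped by the percent of their bases outside coding-transcript exons (x axis), in control and RNAi cells; right, percent of those members called higher in the nucleus. The called share rose from 30.5% to 89.4% in RNAi cells and from 26.6% to 74.4% in control cells.

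The same order was seen in the summed TPM. Members with at most 10% intronic bases summed to 15175 to 16483 TPM in cytoplasmic and 12256 to 17836 in nuclear samples, so the fractions overlapped, as they did from 10% to 25% (17460 to 19223 against 15330 to 19627). From 25% to 50% the sums were 6977 to 9485 in cytoplasmic and 9727 to 13952 in nuclear samples, with no overlap. From 50% to 75% they were 1103 to 1677 and 4209 to 6435, and above 75% they were 90.0 to 117 and 687 to 1033. Members that held at least 1 whole intron were 2512 of the 6675 (37.6%), and the median log2 difference in RNAi cells was 2.92 for the 4163 with none, 3.09 for the 1849 with 1 and 3.39 for the 663 with more. Their summed TPM overlapped between the fractions in each of these groups. The sums were 23233 to 28846 in cytoplasmic and 25796 to 33904 in nuclear samples with none. With 1 they were 14581 to 14975 and 13616 to 20914, and with more 2396 to 3355 and 2797 to 4207.

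**Figure D3:**
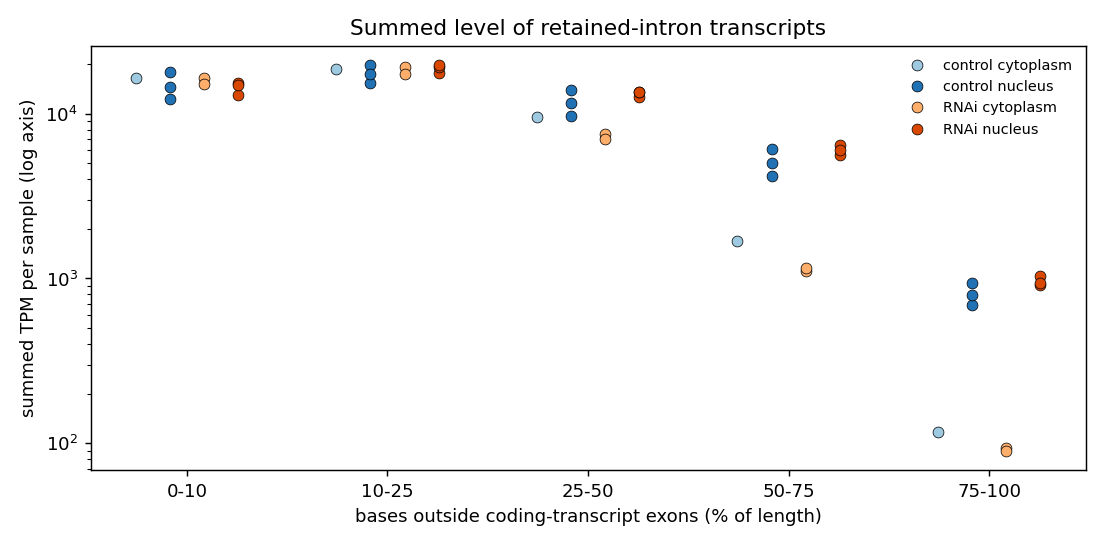
Summed TPM of the members in each sample (y axis, log scale; 1 point per sample, coloured by group) by the percent of their bases outside coding-transcript exons (x axis). The fractions overlapped up to 25% and were apart above it, with 90.0 to 117 TPM in cytoplasmic and 687 to 1033 in nuclear samples in the last group.

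The level and the host gene were related to the difference as well. Split by mean TPM into 4 groups of near-equal size, from lowest to highest, the members had median log2 differences of 4.48, 3.56, 2.89 and 0.81 in RNAi cells. In the lowest group, the median was 3.88 with at most 25% intronic bases (53.6% called higher in nuclei) and 4.60 above 25% (77.3%). In the highest group it was 0.23 (30.6%) and 2.44 (63.5%). In control cells the medians of the lowest group went the other way, at 4.67 with at most 25% intronic bases and 4.29 above 25%. Those of the highest group were 0.10 and 1.95. The intronic part thus made less difference among low members, and its relation to the fraction cannot be read apart from level. The median TPM was 1.30 among members called higher in RNAi nuclei and 19.3 among those called higher in RNAi cytoplasm. Since the entry limit was on TPM, a low member could pass it only where it was high. A member called higher in RNAi nuclei was found in 2688 host genes and one called higher in RNAi cytoplasm in 203, and 76 genes held both kinds. Genes were not counted in this way for other transcripts.

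In each of the 76 genes with both kinds, the member with the highest and that with the lowest called log2 difference were compared. The nuclear one had the larger intronic part in 71 genes and the cytoplasmic one in 5, among them BTF3, with 0% and 95.4%. Both were picked on these same differences and often lay at very different levels, as in ARF5. The tally therefore describes the pairs and tests nothing. In ARF5, a small GTPase of the secretory pathway, ENST00000463733 had 32.3% intronic bases and stood at 0.321 TPM in control cytoplasm, 9.40, 10.7 and 8.18 in control nuclei, 0.628 and 0.174 in RNAi cytoplasm and 4.63, 8.52 and 5.17 in RNAi nuclei. Its partner ENST00000489673, with 4.24% intronic bases, stood at 514, then 272, 299 and 300, then 461 and 527, then 198, 293 and 267 TPM. Every nuclear sample was above every cytoplasmic one for the first and below for the second, with log2 differences of 3.61 ± 0.50 (SE) and −1.22 ± 0.16 in RNAi cells. In TPI1, a glycolytic enzyme, ENST00000482209 (47.0% intronic) had 3.71 ± 0.78, and ENST00000474253 (7.49% intronic) had −0.54 ± 0.16 (edgeR, adjusted p = 0.037). In HSPD1, a mitochondrial chaperone, ENST00000461097 was at 0 in all 3 cytoplasmic samples and at 3.19 to 13.2 TPM in nuclei, while ENST00000476746 stood at 101 to 226 TPM in the cytoplasm and at 81.3 to 111 in nuclei.

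The most abundant members were found at high levels in both fractions. The highest, ALDOA-212 (ENST00000566130, chr16:30080583-30081735, plus strand) of aldolase A, had 5.49% intronic bases and overlapped exons of another annotated gene on its strand. It stood at 4092 TPM in control cytoplasm, 2954, 5198 and 3776 in control nuclei, 3524 and 3606 in RNAi cytoplasm and 2399, 3285 and 3001 in RNAi nuclei. The fractions overlapped in control cells, and the log2 difference between RNAi nuclei and cytoplasm was −0.54 ± 0.16 (edgeR, adjusted p = 0.0308), a call lost without the second RNAi cytoplasmic sample, with −0.18 ± 0.20 (adjusted p = 0.549) in control cells. RPL13-213 (ENST00000565571, chr16:89627091-89628257, plus strand), of a protein of the large ribosomal subunit, stood at 2830.2 TPM in control cytoplasm, 1069.7, 1500.2 and 1324 in control nuclei, 3039.5 and 3518 in RNAi cytoplasm and 1574, 1429 and 1896 in RNAi nuclei. The sequence it keeps may be exon sequence in other coding transcripts, which was not tested. All nuclear values lay below all cytoplasmic ones, with log2 differences of −1.24 ± 0.19 (adjusted p = 0.00248) in RNAi and −1.29 ± 0.23 (adjusted p = 0.00865) in control cells.

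FTH1-211 (ENST00000534719, chr11:61732219-61735058, minus strand), of the ferritin heavy chain that stores iron, stood at 1148 TPM in control cytoplasm, 586, 359 and 472 in control nuclei, 2094 and 1611 in RNAi cytoplasm and 323, 449.8 and 371 in RNAi nuclei. Its difference was −2.51 ± 0.26 in RNAi cells (adjusted p = 0.000612) and −1.36 ± 0.31 in control cells (adjusted p = 0.0202), while its share of the gene, 15.9% to 33.2%, gave no call. CKB-208 (brain creatine kinase) and PTMA-211 (prothymosin alpha, a chromatin-associated acidic protein) were also called higher in the cytoplasm of both cells, at −0.87 ± 0.22 and −0.98 ± 0.22 in RNAi cells. RPL4-203, of another large-subunit protein, was lower in RNAi nuclei by level (−1.15 ± 0.10) but held 72.4% to 78.1% of its gene in every sample. MDH2-206 (ENST00000461665, chr7:75677454-75687493, plus strand), of mitochondrial malate dehydrogenase, likewise took 72.4% to 81.8% of its gene in every sample, at 689 to 1039 TPM, and its level difference of −0.37 ± 0.11 in RNAi cells stayed under the limit of size.

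In 375 members the transcript made up more than 50% of the gene's TPM on average, and a few of these lost share in the nucleus. CPT1C-222 (ENST00000599937, chr19:50215812-50216988, plus strand), of the brain type of carnitine palmitoyltransferase 1, took 97.9% of its gene in control cytoplasm, 83.1%, 71.2% and 75.5% in control nuclei, 99.1% and 99.4% in RNAi cytoplasm and 65.1%, 66.3% and 80.7% in RNAi nuclei. All nuclear shares lay below all cytoplasmic ones, and the difference of log2 ratios was −4.91 ± 0.45 (limma, adjusted p = 0.000548) in RNAi and −3.55 ± 0.57 (adjusted p = 0.00803) in control cells. EIF3F-201, of a subunit of the translation initiation factor eIF3, fell from 97.9% to 99.5% in the cytoplasm to 77.7% to 88.2% in nuclei (−3.68 ± 0.56 in RNAi cells, adjusted p = 0.00327). Of the shares called lower in RNAi nuclei, that of MALSU1-201 changed sign to 0.11 when only the gene's protein-coding transcripts formed the denominator.

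**Figure D4:**
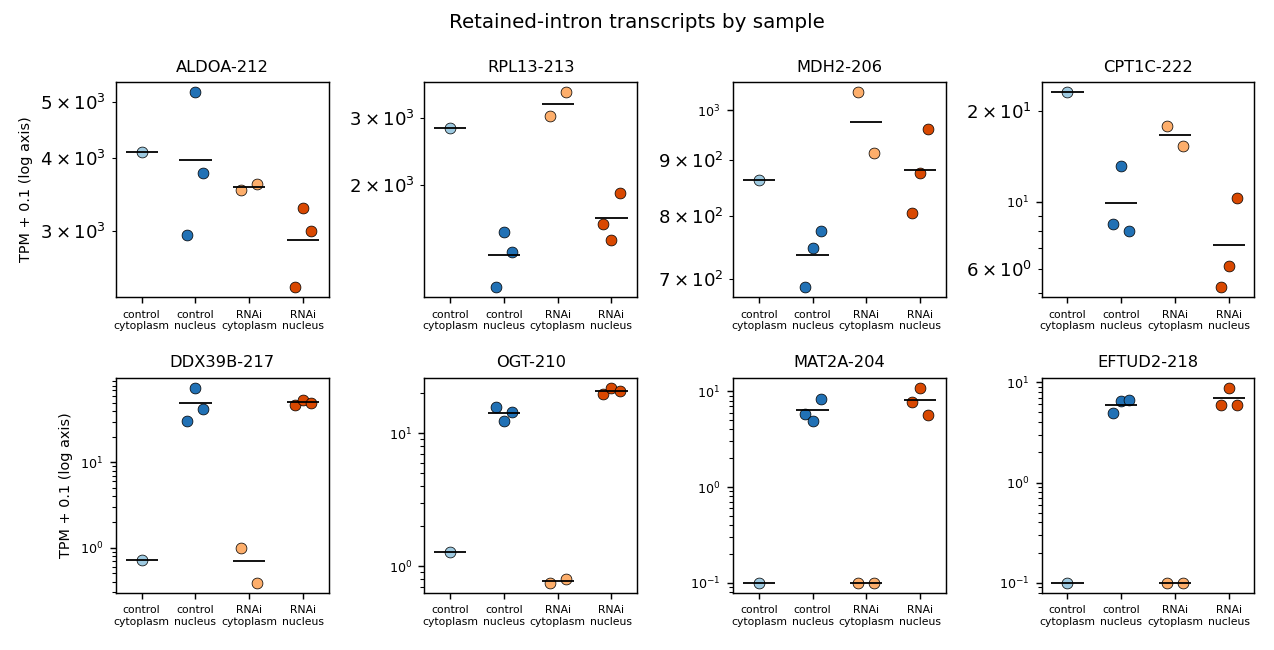
TPM + 0.1 in each sample (y axis, log scale; points are samples and bars group means) for 8 named members by group (x axis). ALDOA-212, RPL13-213 and MDH2-206 were at or above 689 TPM in every sample, whereas DDX39B-217, OGT-210, MAT2A-204 and EFTUD2-218 were at 0 to 1.18 TPM in the cytoplasm and above 4 TPM in nuclei.

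At the other end, some members had no counts in the cytoplasm. EFTUD2-218 (ENST00000590367, chr17:42928284-42950535, minus strand), of a GTPase of the U5 snRNP, was at 0 in all 3 cytoplasmic samples and at 4.78, 6.35 and 6.53 TPM in control nuclei and 5.83, 8.68 and 5.85 in RNAi nuclei. It was at least 79.6-fold higher in RNAi nuclei and at least 114-fold higher in control nuclei, against the 3 counts per library that a value of 0 allows. ENST00000484651 of TACC3 (chr4:1723246-1740077, plus strand), a spindle protein, was at 0.650 TPM in control cytoplasm and 0 in both RNAi cytoplasmic samples, against 10.2 to 15.3 TPM in nuclei (at least 112-fold in RNAi cells and a log2 difference of 4.13 ± 0.28 in control cells). EIF4A2-219 (ENST00000485101, chr3:186501367-186507683, plus strand), of an RNA helicase of translation initiation, kept 7 whole introns and 64.7% intronic bases, and stood at 0 to 0.0458 TPM in the cytoplasm and 3.44 to 4.79 in nuclei. Small nucleolar RNA genes lie in the region it covers, and reads of these could not be told apart from it.

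Members in genes for splicing factors were counted by family, and the share called higher in RNAi nuclei is read beside 62.7% of all members and 29.5% of all transcripts (49.1% and 21.6% in control cells). The SR proteins and related serine/arginine-rich factors such as SRRM1 and SRRM2 hosted 27 members in 11 genes. Several of these were of SRRM2 and of TRA2B, and members of the same gene can share reads and are not independent. Of the 27, 25 (92.6%) were called higher in RNAi nuclei and 0 in the cytoplasm (24 and 1 in control cells). The median log2 difference was 5.0 in RNAi cells, or 3.61 at the bound, beside 0.30 and 0.14 over all transcripts. The hnRNP proteins, which coat nascent RNA, hosted 51 members in 16 genes, with 39 (76.5%) called higher and 2 lower (34 and 3 in control cells), and a median of 4.66 (3.51 at the bound). The core spliceosome hosted 76 in 24 genes, with 51 (67.1%) and 1 (42 and 2) and a median of 4.60 (2.02 at the bound). The CLK and SRPK kinases, which phosphorylate SR proteins, and the kinase DYRK1B of the same list hosted 11 in 5 genes. Of these, 8 (72.7%) were called higher and 0 lower in both cells. The shares of the core spliceosome and the kinases were near that of all members.

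HNRNPA1-212 (ENST00000551679, chr12:54677507-54678155, plus strand), of a major hnRNP, stood at 0 TPM in control cytoplasm, 21.1, 45.7 and 33.8 in control nuclei, 0.426 and 0 in RNAi cytoplasm and 34.3, 36.7 and 39.8 in RNAi nuclei. All nuclear values lay above all cytoplasmic ones (6.94 ± 0.69 in RNAi cells, adjusted p = 0.000521, and at least 29.1-fold in control cells). Its retained segments, of 60 and 30 bases, opened with GC and ended with AG, and no base of it lay outside coding-transcript exons. The members of this family called higher in RNAi cytoplasm were HNRNPUL1-210 and HNRNPC-206, with 112 to 154 and 69.0 to 92.7 TPM in nuclei and 255 to 286 and 136 to 240.2 TPM in the cytoplasm. Their log2 differences in RNAi cells were −1.14 ± 0.08 (adjusted p = 0.000182) and −0.99 ± 0.13 (adjusted p = 0.00126). CLK1-214, of a kinase known for introns held in the nucleus, was at 0 in all cytoplasmic samples and at 1.68 to 5.36 TPM in nuclei, at least 2.94-fold higher in RNAi cells. PRPF8-206 was called in control cells (2.55 ± 0.68, adjusted p = 0.034) with 0.13 (adjusted p = 0.851) in RNAi cells, and its change of ratio after RNAi was not called.

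SRRM2, a large serine/arginine-rich scaffold of nuclear speckles, hosted 3 of the members named here. SRRM2-223 (ENST00000576878, chr16:2818747-2820230, plus strand, 74.8% intronic) stood at 2.88 TPM in control cytoplasm, 25.7, 42.9 and 33.8 in control nuclei, 3.75 and 3.26 in RNAi cytoplasm and 91.8, 98.7 and 88.4 in RNAi nuclei. SRRM2-217 (ENST00000574331, chr16:2819375-2821411, plus strand, 55.6% intronic) stood at 1.09 TPM, then 24.0, 49.4 and 34.2, then 1.58 and 0.620, then 73.2, 83.4 and 66.7. SRRM2-212 (35.9% intronic) stood at 2.85 TPM, then 67.7, 99.6 and 89.1, then 5.38 and 1.75, then 128, 146 and 117. All 3 were higher in every nuclear sample, with log2 differences in RNAi cells of 4.50 ± 0.18 (adjusted p = 4.63e-05), 5.84 ± 0.40 (adjusted p = 0.000144) and 4.98 ± 0.37 (adjusted p = 0.000188). They overlap in part, so the counting could split reads between them. SRRM2-223 and SRRM2-217 also overlap exons of another annotated gene on their strand.

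The genes of mRNA export, which carry mature mRNA through the nuclear pore, hosted 20 members in 9 genes, with 19 (95%) called higher in RNAi nuclei and 0 lower (14 and 0 in control cells), beside 62.7% of all members and 29.5% of all transcripts in RNAi nuclei and 49.1% and 21.6% in control nuclei. DDX39B is the RNA helicase of the TREX complex, also called UAP56, and DDX39B-217 (ENST00000474961, chr6:31497996-31499521, minus strand, 34.8% intronic) stood at 0.608 TPM in control cytoplasm, 30.5, 75.1 and 42.5 in control nuclei, 0.893 and 0.285 in RNAi cytoplasm and 47.7, 54.1 and 50.3 in RNAi nuclei. It took 22.7% to 41.5% of its gene in nuclei and 0.612% to 1.5% in the cytoplasm, with level differences of 6.17 ± 0.46 (adjusted p = 0.000188) in RNAi and 6.22 ± 0.62 (adjusted p = 0.00146) in control cells. DDX39B-215, which keeps the whole intron shown for it and 60.3% intronic bases, was less unequal, at 7.75 to 11.5 TPM in the cytoplasm and 40.4 to 53.8 in nuclei (1.95 ± 0.21 in RNAi cells). Both DDX39B members overlap exons of another annotated gene, ATP6V1G2-DDX39B, on their strand. NXF1-212, of the export receptor itself, had 1.15 ± 0.42 (adjusted p = 0.0669), a call that was lost in turn without 3 of the libraries.

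Nuclear RNA decay genes hosted 14 members in 8 genes, and all 14 were called higher in RNAi nuclei and 13 in control nuclei, beside 62.7% and 49.1% of all members and 29.5% and 21.6% of all transcripts. EXOSC2-207 (ENST00000467138, chr9:133576229-133580248, plus strand), of a core subunit of the RNA exosome, stood at 1.64 TPM in control cytoplasm, 10.7, 20.7 and 16.3 in control nuclei, 1.03 and 0.511 in RNAi cytoplasm and 10.4, 15.5 and 11.2 in RNAi nuclei. It took 33.3% to 57.0% of its gene in nuclei and 2.56% to 9.04% in the cytoplasm (share 3.79 ± 0.43, adjusted p = 0.000982, and level 3.75 ± 0.33, adjusted p = 0.000336, in RNAi cells). ZCCHC8-203, of the exosome's nuclear targeting complex, differed by readout: its level was 1.17 ± 0.23 higher in RNAi nuclei (adjusted p = 0.00655), and its share, 83.0% to 97.8% of the gene, was 1.33 lower on the log2 scale (adjusted p = 0.0378). With a pseudocount of 1 TPM this share difference was 0.018. The NMD factors hosted 21 in 9 genes, with 17 (81.0%) and 0 called in both cells, among them RNPS1-213 (90.8% intronic), at 0.306 to 0.415 TPM in the cytoplasm and 7.29 to 10.8 in nuclei (4.79 ± 0.19, adjusted p = 4.63e-05).

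The m6A writers, readers and erasers hosted 9 members in 6 genes, with 4 called higher in RNAi nuclei and 3 in control nuclei and 0 in the cytoplasm, and medians of 1.88 and 0.48. The share in RNAi nuclei (44.4%) lay between the 29.5% of all transcripts and the 62.7% of all members, and that in control nuclei (33.3%) between 21.6% and 49.1%. METTL3 is the catalytic subunit of the methylase. METTL3-205 (36.2% intronic) stood at 0 TPM in control cytoplasm, 1.88, 3.59 and 2.88 in control nuclei, 0.422 and 0 in RNAi cytoplasm and 2.40, 2.79 and 4.51 in RNAi nuclei (3.66 ± 0.96, adjusted p = 0.0222). ENST00000542054 of the same gene, which holds the same whole intron of 214 bases (chr14:21971435-21971648, minus strand), overlapped between the fractions, at 4.12 to 5.86 TPM in the cytoplasm and 0.700 to 7.41 in nuclei, and gave no call. ZC3H13-203, of a zinc-finger subunit of the same complex, had 1.99 ± 0.56 (adjusted p = 0.0288) in RNAi cells, lost without the first RNAi cytoplasmic sample.

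Of the 6 members of genes that supply S-adenosylmethionine, 4 (66.7%) were called higher in RNAi and 5 in control nuclei, beside 62.7% and 49.1% of all members and 29.5% and 21.6% of all transcripts. MAT2A-204 (ENST00000469221, chr2:85766291-85768779, plus strand), which ends just after its retained intron, was at 0 in all cytoplasmic samples and at 5.66, 4.75 and 8.30 TPM in control and 7.67, 10.8 and 5.56 in RNAi nuclei (at least 13.0-fold and 16.7-fold higher in RNAi and control cells). Whether its intron is that which answers to S-adenosylmethionine was not tested, and MAT2A-203 kept a different intron. OGT-210 (ENST00000488174, chrX:70752954-70794505, plus strand, 45.2% intronic) stood at 1.18 TPM in control cytoplasm, 15.6, 12.2 and 14.3 in control nuclei, 0.648 and 0.694 in RNAi cytoplasm and 19.6, 21.8 and 20.5 in RNAi nuclei. Its share of the gene was 30.9% to 39.1% in nuclei and 4.66% to 7.41% in the cytoplasm, and its level difference was 4.70 ± 0.25 (adjusted p = 7.24e-05) in RNAi and 3.55 ± 0.32 (adjusted p = 0.00113) in control cells. OGT-208 was called in RNAi cells (2.33 ± 0.46, adjusted p = 0.00734).

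The genes for ribosomal proteins hosted 157 members, of which 117 were called higher in RNAi nuclei and 10 in the cytoplasm, with a median of 4.08 (3.14 at the bound), where 62.7% and 3.02% of all members and 29.5% and 12.9% of all transcripts were called in these directions. RPL3-217 was at 0.129 TPM in control cytoplasm, at 0 in both RNAi cytoplasmic samples and at 13.2 to 16.6 in nuclei, at least 30.7-fold higher in RNAi cells. The same family thus held both RPL13-213, at 1069.7 to 3518 TPM, and members at 0 in the cytoplasm. One list held genes measured in the study by RT-qPCR. Of its 7 members in 4 genes, 5 (71.4%) were called higher in RNAi nuclei (4 in control cells, where 1 was higher in the cytoplasm), among them SYMPK-202 (2.09 ± 0.21, adjusted p = 0.000585) of the 3′ end processing scaffold symplekin.

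The nuclei of RNAi and control cells were compared to ask whether depletion of Virilizer and WTAP changed the members' levels. No member, and 0 of the 46718 transcripts, passed edgeR's threshold in RNAi against control nuclei, where 0% of all transcripts were called in either direction and the lowest adjusted p of a member was 0.123. At an unadjusted p under 0.05 there were 463 members (6.31%), beside 10.2% of all transcripts. DESeq2 called 86 members higher (1.17%) and 15 lower (0.204%), beside 1.34% and 1.34% of all transcripts. With limma on log2(TPM + 1), 13 (0.177%) and 2 (0.0273%) were called, beside 0.178% and 0.0642%. The median log2 change of the members was 0.13, beside 0.02 over all transcripts, and 4428 of 7339 were positive. All 3 RNAi nuclear values lay above all 3 control nuclear values for 947 members (12.9%) and below for 227 (3.09%), beside 11.2% and 6.73% of all transcripts.

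SRRM2 and EIF4G2 held members whose values in RNAi nuclei lay wholly above those in control nuclei. SRRM2-223 stood at 25.7, 42.9 and 33.8 TPM in control and 91.8, 98.7 and 88.4 in RNAi nuclei, and its share of the gene was 1.26%, 1.38% and 1.34% against 3.71%, 3.40% and 3.42%. The log2 change was 1.42 ± 0.13, with an adjusted p of 0.123 in edgeR, 4.67e-16 in DESeq2 and 0.0669 in limma on log2(TPM + 1). SRRM2-217 (1.03 ± 0.26) and SRRM2-212 (0.60 ± 0.25) had adjusted p = 0.252 and 0.476 in edgeR, and 0.00256 and 0.0564 in DESeq2. EIF4G2-228 (ENST00000534246, chr11:10828621-10830466, minus strand), of a translation factor related to eIF4G, was at 3.54 TPM in control cytoplasm, 4.78, 3.53 and 6.62 in control nuclei, 0 in both RNAi cytoplasmic samples and 21.9, 14.7 and 16.3 in RNAi nuclei. Its nuclear change was 1.82 ± 0.42, with adjusted p = 0.252 in edgeR, 0.0201 in DESeq2 and 0.0784 in limma. None of these is a call in the edgeR test.

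By share of the gene, limma called 8 of the 7035 members higher (0.114%) and 6 lower (0.0853%) in RNAi nuclei, beside 0.133% and 0.113% of all transcripts, with a median change of 0.12 beside 0.00. All 3 RNAi nuclear shares lay above all 3 control nuclear shares for 756 members (10.7%) and below for 342 (4.86%), beside 7.95% and 7.66% of all transcripts. Without the second or the third RNAi nuclear sample the count higher was 4 or 5, and without the first or the second control nuclear sample it was 15 or 14. YBX3-213 (ENST00000542641, chr12:10853873-10870714, minus strand), of a Y-box RNA-binding protein, was at 3.11, 8.94 and 4.79 TPM in control nuclei and at 0 in all 3 RNAi nuclei and in the cytoplasm (share −5.84 ± 0.43, adjusted p = 0.0169), at least 9.02-fold lower in RNAi nuclei. TMC6-219, of a transmembrane channel-like protein, took 8.36%, 13.8% and 19.4% of its gene in control nuclei and 0 in RNAi nuclei, at 0.670 to 1.31 and 0 TPM (−4.01 ± 0.41, adjusted p = 0.0199), but 32.3% and 41.3% in RNAi cytoplasm. ATP6V1D-214 (a proton pump subunit) and BBS7-206 (a ciliary protein) were at 0 in control nuclei and at 1.04 to 1.98 and 1.63 to 2.08 TPM in RNAi nuclei, by share 3.97 ± 0.35 and 3.85 ± 0.33 (adjusted p = 0.0197 for both). These rested on 3.90, 1.99 and 5.48 estimated counts for ATP6V1D-214 and on 1.00, 0.568 and 1.00 for BBS7-206, which is under the limit that a count of 0 allows, so the second was not detectable as a change at this depth.

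**Figure D5:**
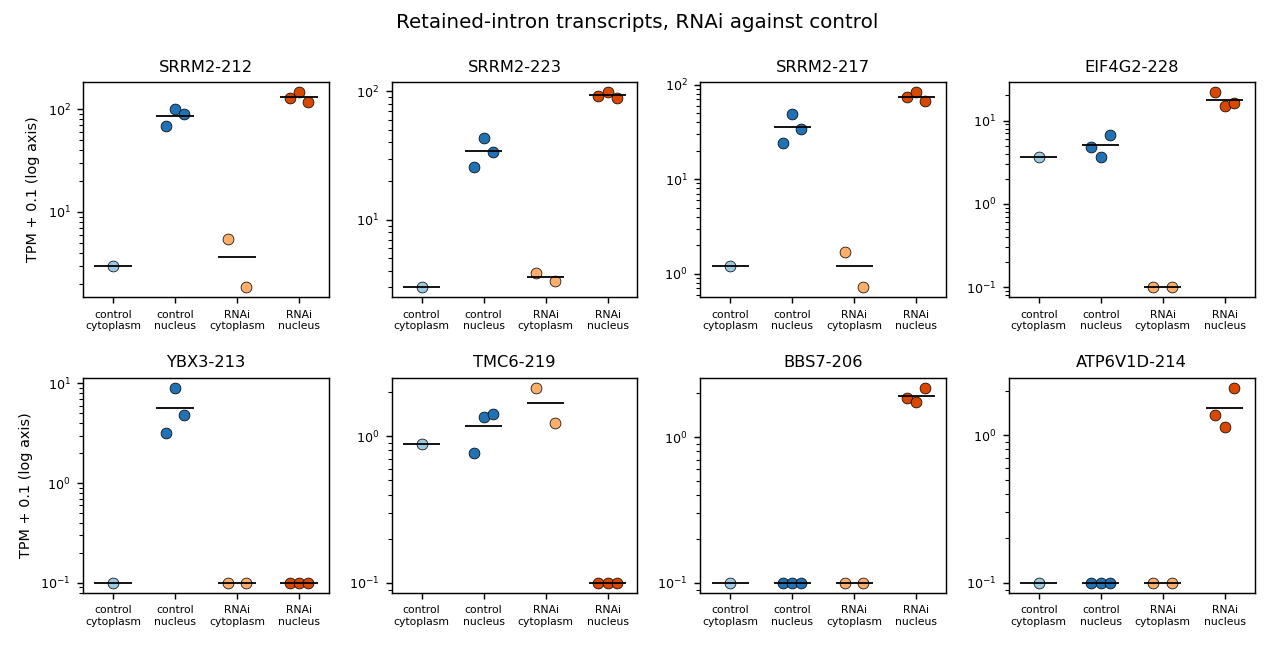
TPM + 0.1 in each sample (y axis, log scale; points are samples and bars group means) by group (x axis) for 8 members with separated nuclear values after RNAi. SRRM2-223 stood at 25.7 to 42.9 TPM in control nuclei and 88.4 to 98.7 in RNAi nuclei, while YBX3-213 was at 0 in every RNAi sample.

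The change of the nuclear/cytoplasmic ratio after RNAi, the comparison that asks whether depletion of the methylase shifts transcripts between fractions, called 40 members with an increased (0.545%) and 17 with a decreased ratio (0.232%) by level, beside 0.458% and 0.261% of all transcripts. By share, 4 (0.0569%) and 6 (0.0853%) were called, beside 0.0648% and 0.0818%. The median change was 0.26 for members and 0.08 for all transcripts. All of these rest on the single control cytoplasmic sample. The counts by level changed with the libraries used: without the first RNAi cytoplasmic sample they were 81 and 30, and without the control nuclear samples 1, 2 and 3 they were 11 and 11, 10 and 5, and 1 and 0. Without the RNAi nuclear samples 1, 2 and 3 they were 0 and 0, 3 and 0, and 0 and 0. By share the increased count was 8 and 10 without the RNAi cytoplasmic samples 1 and 2, 2 without control nuclear sample 1, and 0 without any other nuclear sample. The decreased count by share was 2 without RNAi nuclear sample 2 and without control nuclear sample 1, and 0 without any other nuclear sample. The shares called among the members were thus close to those of all transcripts, and the counts were not stable to single libraries.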

How the data were processed

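Poly(A)-selected, stranded libraries of nuclear and cytoplasmic RNA were sequenced, and the fractions had been checked by western blot in the study. Reads were trimmed with cutadapt and quantified with Salmon on human GRCh37 (hg19) with Ensembl 75 transcripts, per the labels and the study's methods, and versions and the strand setting are not given in the sources used here. The authors deposited per-transcript estimated counts and TPM values, and TPM divides by effective length and scales every sample to the same total. Salmon divides reads among overlapping transcripts of a gene, so values of members that share exons are uncertain, and 19 of 104 named members overlap exons of another gene on their strand and 19 on the other strand. Types, coordinates and exons came from GENCODE 44 mapped to GRCh37, in which 85.1% of the listed transcripts were matched.

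Estimated counts were rounded and fitted with edgeR 4.0.16 (TMM, 4 groups, 9 samples, 5 residual degrees of freedom, biological coefficient of variation 0.442), and shares with limma 3.58.1 (trend) at a pseudocount of 0.1 TPM, for genes at 1 TPM or more in every sample. R 4.3.3, DESeq2 1.42.0 and Python 3.11.15 were used. The fits were also run on simulated data with less spread between samples than these data, so that run does not measure the power here. Folds against a group at 0 used 3 counts per library as the floor. Named members were the 10 with the highest mean TPM, the 10 with the highest share, up to 5 per contrast, readout and direction, and members of fixed host lists. The members and lists were chosen with earlier results of these data known. Replicates correlated at r = 0.918 to 0.949 over transcripts and differed beyond sampling noise (chi-square 10.8 to 40.4 per transcript). Alternatives covered the false discovery rate, filters, scaling, the tool, pseudocounts, the denominator, a replicate block and leaving out each sample.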

Additional observations from a re-analysis of the deposited data

Results flagged for a closer look

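The change of the nuclear/cytoplasmic ratio after RNAi was tested as a difference in itself (edgeR for level, limma for share), and the values are given for 15 of the called members, those with the largest called changes whose sign held without each library. Except for TMC6 and YBX3, the fitted changes rest on levels at or near 0 in the single control cytoplasmic sample or both RNAi cytoplasmic samples. Those of TMC6 and YBX3 rest on 0 in RNAi nuclei. The size of all these changes thus depends on the prior count, and each of the 19 calls was lost when at least 1 library was left out.

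Increased ratios went with no or nearly no signal in RNAi cytoplasm. HSPA8 ENST00000527983, of a constitutive heat shock protein, changed by 11.57 by level and 6.36 by share on the log2 scale, and stood at 13.2 TPM in control cytoplasm and 0.00124 TPM or less in RNAi cytoplasm, with 11.6 to 24.6 TPM in all nuclei. SLX1A-SULT1A3 ENST00000566712, a readthrough transcript, changed by 9.28 by level (2.83 TPM in control and 0.00463 and 0.00225 in RNAi cytoplasm). SLC35E2B ENST00000480991 changed by 9.34 by level (1.81 against 0.00989 and 0), and RHPN1 ENST00000522335 by 9.10 (1.33 against 0 and 0). RBX1 ENST00000476110, of a ubiquitin ligase subunit, changed by 8.97 by level and 6.99 by share (6.20 against 0 and 0). TRIM28 ENST00000600840, of a corepressor of transcription, changed by 7.04 by share (8.0 against 0 and 0), and LUC7L2 ENST00000435096, of a splicing factor, by 5.13 (3.02 against 0 and 0).

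Decreased ratios went, in most cases, with no or nearly no signal in control cytoplasm. NELFA ENST00000467661, of a transcription pausing factor, changed by −12.46 by level (9e-05 TPM in control cytoplasm, 25.9 and 7.35 in RNAi cytoplasm). KCTD19 ENST00000568736 changed by −9.67 by level and −8.51 by share (2.36e-07 against 9.99 and 5.69), and PACS2 ENST00000551743 by −9.03 by level (0.00477 against 2.76 and 1.72). TBL1XR1 ENST00000474363 changed by −8.37 by level (0 against 0.276 and 0.432). TNKS1BP1 ENST00000532273 changed by −7.77 by level and −5.53 by share (0 against 5.93 and 7.62). GRN ENST00000590984, of progranulin, changed by −6.46 by share (0.0850 against 31.8 and 11.9). YBX3 ENST00000542641 (−5.69 by share) and TMC6 ENST00000591594 (−5.94 by share) were instead at 0 in RNAi nuclei, as described above. YBX3 was at 0 in every cytoplasmic sample as well, so its change rests on the control nuclei and cannot show a shift between fractions.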

How the results depend on the processing

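Counts of members are given as higher/lower in the nucleus, or in RNAi, unless stated. By level, at a false discovery rate of 0.05, 163 members were higher in control cytoplasm and the changes of ratio were 2/0. With a mean TPM of 1 or more, 2915 of 4881 were higher in RNAi nuclei. DESeq2 called 86/15 in RNAi against control nuclei and 143/78 changes of ratio, limma on log2(TPM + 1) 13/2 and 3/1, and limma on log2(TPM + 0.1) 6/1 with 7 decreased ratios and 143 members higher in RNAi cytoplasm. Without a filter, 2072/168 were called in control cells, 3 higher in RNAi nuclei and 23 increased ratios. With library size alone, 136 were higher in RNAi cytoplasm and 11 ratios decreased. By share, a rate of 0.05 gave 71 and 44 higher in RNAi and control cytoplasm and ratio changes of 1/1. A mean TPM of 1 or more gave 2474 and 1910 higher in RNAi and control nuclei, 1/1 after RNAi and 11 increased ratios. A gene TPM of 5 gave 2 lower after RNAi and 8 increased ratios. A pseudocount of 0.01 gave ratio changes of 289/118, and a pseudocount of 1 gave 305 and 198 higher in RNAi and control cytoplasm, 0/1 after RNAi and 0/0 ratio changes. The protein-coding denominator gave 66 and 53 higher in RNAi and control cytoplasm, 3 lower after RNAi and ratio changes of 7/2. With the replicate block, changes of ratio were 0/0 by level, and by share 0/0 after RNAi in nuclei and 0/0 for changes of ratio, while nucleus against cytoplasm stayed within 1.5 times (level 4171/199 in RNAi and 2688/215 in control cells, share 3676/114 and 2462/92). Same-numbered samples deviated from their group means together at r = −0.012 to 0.179, so the numbers were not treated as pairs; among the nuclei each sample correlated best with its own number (0.0388 to 0.0783), a hint from the data and not from the design.

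Leaving out each sample gave, by level, 3985 to 4604 and 164 to 243 in RNAi cells, 3141 to 3878 and 195 to 278 in control cells, 0 to 0 after RNAi in nuclei, and 0 to 81 and 0 to 30 changes of ratio. By share it gave 3512 to 3931 and 87 to 144, 2629 to 3106 and 67 to 104, 4 to 15 and 5 to 8, and 0 to 10 and 0 to 8. The log2 of summed TPM, nucleus over cytoplasm, was 0.25 (0.20 to 0.30), and the share difference 4.94 points (4.76 to 5.26). Without the control cytoplasmic sample the control contrast and the change of ratio could not be fitted. Of 4949 alternative values of the named members' calls, 4359 kept direction and call, 585 kept direction only and 5 reversed: the share of ZCCHC8 in RNAi cells (0.018 at a pseudocount of 1) and, with the protein-coding denominator, those of SARM1 (0.45 in RNAi cells), A1BG (0.47 in control cells) and MALSU1 (0.11 and 0.075 in RNAi and control cells). The cause was not tested. Of 293 called values, 213 held without each library and 80 were lost without at least 1. One control cytoplasmic sample limits every control ratio, and members at a few counts limit the share calls after RNAi.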
